A study of Mus musculus with 8 samples.

Results

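The 4 empty-vector libraries of MIN6 cells described here are the controls of a series of 8 libraries, and they were chosen by their labels alone. MIN6 is a mouse β-cell line grown from an insulinoma that arose in mice carrying a viral oncogene under the insulin promoter, and the labels give its genotype as WT. The cells were transfected for 48 h with pcDNA 3 Empty Vector by Lipofectamine, a lipid that carries plasmid DNA into cells, so every library comes from transfected cells and no untreated culture was analysed here. Libraries were made from polyadenylated RNA (Tecan Universal Plus mRNA-seq). Replicates 1 and 2 are labelled batch 1 and replicates 3 and 4 batch 2, and the labels do not say what a batch was. The series' own text calls the replicates biological, but nothing says that they were separate cultures, so p-values measure only the spread between these libraries, which may be technical. The extraction note speaks of isolated islets, while every other label names the line. A dividing line is a limited model of the islet, where β cells sit beside α, δ and PP cells and rarely divide.

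In the islet, β cells take up glucose through a transporter, metabolise it and raise ATP, which closes the KATP channel, depolarises the membrane, opens voltage-gated calcium channels and releases insulin granules. A set of transcription factors, among them Pdx1, Mafa, Nkx6-1, Nkx2-2 and Neurod1, keeps the insulin genes on, and receptors for incretins, fatty acids, catecholamines, somatostatin and galanin tune the secretion. Levels are given as CPM (counts scaled to a common library total, with TMM factors) where a gene is followed across libraries. They are given as TPM (counts divided by exonic length, then scaled to a common total) where different genes are set side by side.

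The 4 libraries held 47017647 to 49504167 counts. Of 55536 genes listed, 25658 had no count in any library and 13239 reached 1 CPM in all 4, among them 12041 of 22028 protein-coding genes but 238 of 5854 lincRNA genes. The 13239 genes had a median of 22.6 TPM. A count of 0 in 1 library allows a level of up to 0.0606 to 0.0638 CPM, the value of 3 counts, and a count of 0 in all 4 allows up to 0.0155 CPM; both limits cover counting error only. The 194 most abundant genes held 25% of the counts and 1124 genes held 50%. Across 13752 genes with a mean of at least 1 CPM, which are not independent replicates, log2 levels of libraries correlated at a Pearson r of 0.9976 and 0.9978 within batches and 0.9935 to 0.9943 between them. Counts of replicates differed by more than sampling noise (chi-square per degree of freedom 5.36 within batch 1, 5.15 within batch 2 and 18.2 to 23.3 between batches), so each library was counted as its own sample.

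All 7 genes listed as β-cell markers were above 1 CPM in every library. So were 54.7% of protein-coding genes and the α-cell markers Gcg and Ttr, so this check alone cannot settle the cell type. Ins2 and Ins1, the mouse insulin genes, and Iapp, which encodes the amyloid peptide released with insulin, lay at 41887, 10365 and 19905 TPM on average, ranks 1, 8 and 5 of all genes. The factors Pdx1, Mafa and Nkx6-1 lay at 992, 761 and 211 TPM. Slc2a2, the glucose transporter of rodent β cells, was the lowest of the 7 at 68 TPM, above the median of detected genes.

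The promoters of Ins1 and Iapp are printed because these genes stand among the 12 most abundant by CPM and their control by β-cell factors is well known. Each window runs from 250 bases before to 50 bases after the RefSeq start (build GRCm38.p6), on the plus strand, at chr19:52264047-52264346 for Ins1 and chr6:142298175-142298474 for Iapp. Capitals mark CATCTG, an E-box letter string of the kind that Neurod1 heterodimers bind, searched on both strands.
Ins1: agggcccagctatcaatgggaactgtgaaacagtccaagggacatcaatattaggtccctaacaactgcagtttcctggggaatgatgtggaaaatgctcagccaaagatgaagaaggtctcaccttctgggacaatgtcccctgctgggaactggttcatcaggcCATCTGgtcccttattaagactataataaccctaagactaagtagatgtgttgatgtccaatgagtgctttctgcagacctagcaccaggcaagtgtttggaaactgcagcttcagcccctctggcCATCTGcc
Iapp: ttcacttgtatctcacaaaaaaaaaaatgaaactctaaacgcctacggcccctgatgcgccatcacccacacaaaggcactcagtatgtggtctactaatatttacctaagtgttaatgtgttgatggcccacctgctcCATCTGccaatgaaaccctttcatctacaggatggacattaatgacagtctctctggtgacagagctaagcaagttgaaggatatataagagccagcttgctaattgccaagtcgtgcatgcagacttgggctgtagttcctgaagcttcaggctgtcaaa
The Ins1 window held 2 matches and the Iapp window 1, and 17.2% of 32851 promoter windows of 300 bases held at least 1. The core string TAAT, shared by many homeodomain sites such as those of Pdx1, occurred 3 times in the Ins1 window and 5 times in the Iapp window, on either strand, and 58% of all windows held it. A match is a description of letters and not a site shown to be bound in these cells. Its place in the window rests on the annotated start, and where transcription starts in these cells was not tested.

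Ins2 was the most abundant gene in these libraries by CPM and by TPM. Ins2 (chromosome 7, GRCm38) had 19430, 19145, 14364 and 14245 CPM in replicates 1 to 4, a mean of 16796 ± 2880 CPM (SD, n = 4). Ins1 (chromosome 19) had 3949, 4012, 2808 and 2686 CPM. Both genes were high in replicates 1 and 2 and low in replicates 3 and 4, with no overlap between batches. Of the 50-base windows of the Ins2 transcript 0.806% also occur in another gene, and of Ins1 0.691%, so that reads of the pair can be told apart over nearly all of their length. On the TPM scale Ins2 stood 3.98 and 3.86 times above Ins1 in batch 1 and 4.14 and 4.29 times in batch 2. The insulin genes together took 2.34% and 2.33% of the counts in batch 1 and 1.71% and 1.69% in batch 2, or 4.35% to 6.07% of TPM. With the longest annotated transcript as the length, the means became 46679 TPM for Ins2 and 8082 TPM for Ins1. Iapp, on chromosome 6, had 6003, 5966, 5865 and 5880 CPM, also without overlap between batches. Its whole range was smaller than the gap between batches for either insulin gene. With 2 libraries in a batch, a lack of overlap carries little weight alone, here and below. Its share over all genes was not counted.

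**Figure D1:**
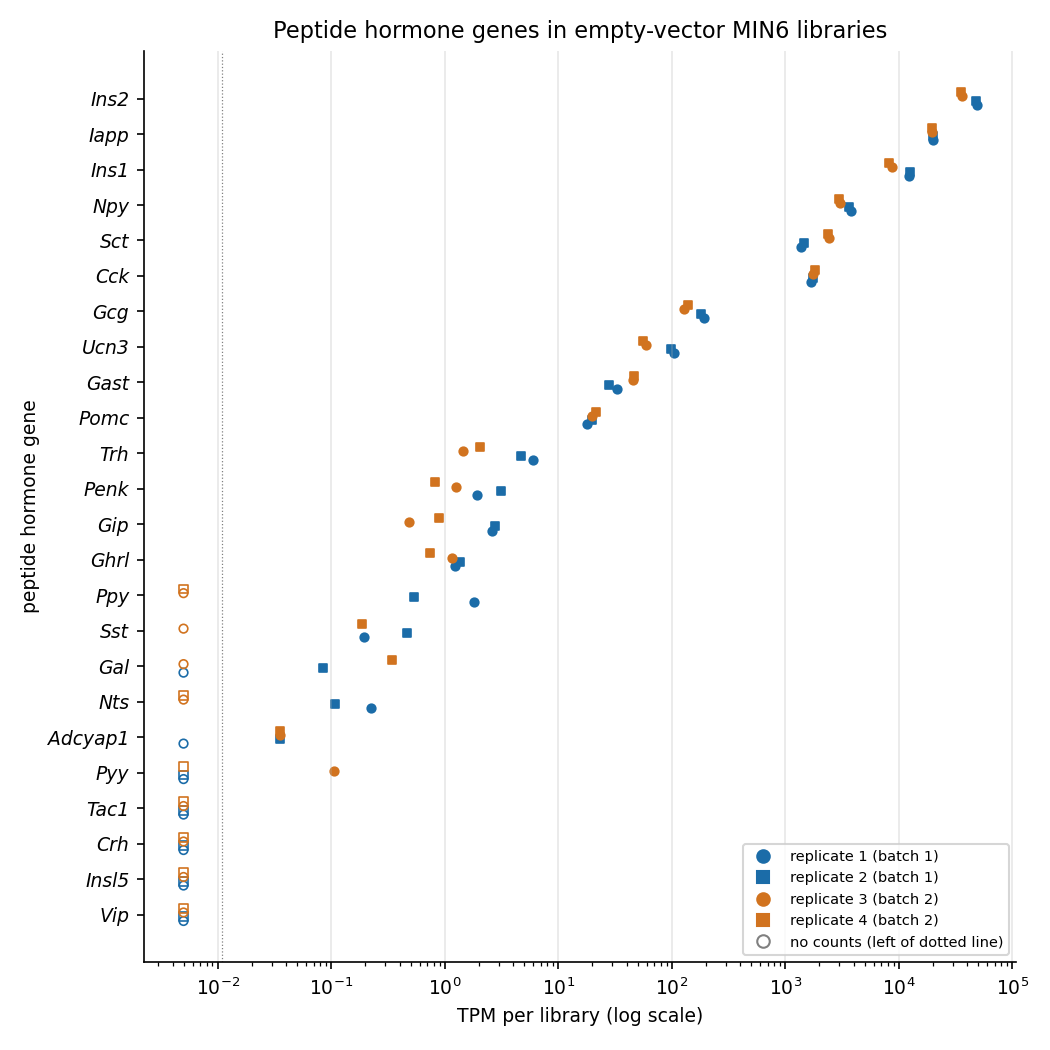
TPM per library (log scale) of 24 peptide hormone genes in the 4 empty-vector MIN6 libraries, in order of mean TPM; blue points are batch 1, orange points batch 2, and open points left of the dotted line had no counts. Ins2, Iapp and Ins1 are the highest, Gcg lies far below them at a mean of 160.4 TPM, and Vip, Tac1, Crh and Insl5 have no counts in any library.

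Other peptide genes were also high. Npy, which encodes neuropeptide Y, lay at 3355 ± 417 TPM (SD, n = 4), Sct, the gene of the gut hormone secretin, at 1912 ± 569 TPM (SD, n = 4), and Cck, the gene of cholecystokinin, at 1750 ± 50.7 TPM (SD, n = 4). By the longest transcript Sct lay at 1559 TPM and Cck at 2229 TPM, which turns their order. Sct had 273, 286, 479.5 and 473 CPM, low in batch 1 and high in batch 2, the opposite order to insulin. Ucn3, the gene of urocortin 3 and a mark of mature mouse β cells, had 47.4, 44.3, 26.8 and 25.6 CPM, high in batch 1. Gast, the gastrin gene, had 4.61, 3.91, 6.45 and 6.64 CPM and Pomc, the precursor of several pituitary peptides, 7.18, 7.96, 7.97 and 8.82 CPM.

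The glucagon gene was counted in every library, far below insulin, while the other non-β islet hormones had few counts or none. Gcg (chromosome 2) had 4155, 4014, 2915 and 3060 counts in replicates 1 to 4, or 88.3, 82.2, 59.1 and 63.5 CPM, high in batch 1 and low in batch 2 with no overlap. Its 160.4 ± 31.5 TPM (SD, n = 4) is above the median of detected genes. The somatostatin gene Sst had 2, 5, 0 and 2 counts in the 4 libraries, the pancreatic polypeptide gene Ppy 13, 4, 0 and 0, and the peptide YY gene Pyy 0, 0, 1 and 0. Beyond 5 counts of Sst in replicate 2 and 13 and 4 of Ppy in replicates 1 and 2, these counts are 3 or fewer. No background level was estimated for such low counts. Ghrl, the ghrelin gene, had 19, 22, 19 and 12 counts, and its exons overlap those of other annotated genes. Of the 24 hormone genes 10 were above 1 CPM in all libraries, Trh and Penk crossed that level, 8 lay under it with some counts, and 4 had none.

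Among these libraries the batch is the only condition the labels vary, and batch 2 was set against batch 1 with edgeR's quasi-likelihood test. Of 17716 genes tested, 3429 (19.4%) passed an adjusted p of 0.05, 1802 (10.2%) higher and 1627 (9.18%) lower in batch 2, with a median log2 difference of 0.00 over all tested genes. Of 14 hormone genes that passed the filter on low counts, 10 were called, 2 higher and 8 lower, with a median of -0.43. Insulin was lower in batch 2 for both genes, Ins2 (log2 difference -0.43, SE 0.01, adjusted p = 6.54e-17) and Ins1 (log2 difference -0.54, SE 0.02, adjusted p = 6.61e-14). Gcg was lower as well (log2 difference -0.47, SE 0.05, adjusted p = 3.21e-07), as were Ucn3 (log2 difference -0.81, SE 0.06, adjusted p = 3.72e-09) and Npy (log2 difference -0.30, SE 0.03, adjusted p = 3.21e-07). Sct was higher in batch 2 (log2 difference 0.77, SE 0.03, adjusted p = 2.03e-13), and so was Gast (log2 difference 0.62, SE 0.13, adjusted p = 0.0019). Iapp did not pass (log2 difference -0.03, SE 0.01, adjusted p = 0.238), nor did Cck (log2 difference 0.07, SE 0.03, adjusted p = 0.124). In bulk RNA, fewer cells expressing a gene and less RNA per cell cannot be told apart. What differed between the batches is not in the labels, and its part in these differences was not tested.

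The machinery that makes and packs hormone was detected throughout. All 16 genes of hormone processing and the granule were above 1 CPM in every library, with a median of 838 TPM. Chga and Chgb, the chromogranins that fill the granule core, lay at 8197 and 7097 TPM, ranks 10 and 11, and the secretogranin gene Scg2 at 3778 TPM. Of the enzymes that cut and trim prohormones, carboxypeptidase E (Cpe) lay at 2957 ± 179 TPM (SD, n = 4), the convertase Pcsk2 at 754 ± 12.7 TPM (SD, n = 4) and the convertase Pcsk1 at 176 ± 19.8 TPM (SD, n = 4). Pcsk2 thus had several times the TPM of Pcsk1 in every library, although its exons overlap antisense transcripts, and whether the counting used strand is unknown here. Slc30a8, which loads zinc into granules, lay at 321 TPM and Ero1lb, an oxidase for disulfide bonds of proinsulin, at 248 TPM. By batch, 11 of the 16 were called against 19.4% of all tested genes, 10 lower and 1 higher in batch 2. Under a filter of 1 CPM in at least 2 libraries, 3464 of 13885 genes were called. The share among genes as abundant as these 16 was not counted, so the number of calls cannot be read as particular to this list. Chga had 7510, 7482, 6350 and 6280 CPM and was lower in batch 2 (log2 difference -0.25, SE 0.01, adjusted p = 9.51e-11), as were Scg2 (log2 difference -0.28, SE 0.02, adjusted p = 1.08e-09), the neuroendocrine peptide gene Vgf (log2 difference -0.36, SE 0.03, adjusted p = 3.54e-08) and Pcsk1 (log2 difference -0.26, SE 0.03, adjusted p = 6.77e-06). Chgb was the only one called higher, by 0.05, and it lost the call without replicate 1, without replicate 3, in DESeq2 and under a filter of 1 CPM (adjusted p from 0.000446 to 0.247 over the alternatives). Pcsk2 had 1854, 1780, 1845 and 1821 CPM, with overlapping batches, and was not called.

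Transcription factors of the β cell were present at a graded level. Of 22 factors listed for the β cell and the islet lineage 20 were above 1 CPM in every library, with a median of 74.7 TPM over the 22. Pdx1, which binds the insulin promoter and is required for the pancreas to form, led at 992 ± 25.2 TPM (SD, n = 4), and Mafa, an activator of insulin in mature β cells, followed at 761 ± 73 TPM (SD, n = 4). Mlxipl, the glucose-responsive factor ChREBP, lay at 339 TPM, Neurod1 at 263 TPM, Nkx6-1 at 211 TPM and Nkx2-2 at 168 TPM. By the longest transcript Nkx6-1 lay at 164 TPM and Nkx2-2 at 177 TPM, which turns their order. The TPM of Pdx1 and Mafa did not overlap between any libraries. Pax6, a paired-homeobox factor of all endocrine cells, lay at 79.2 ± 2.21 TPM (SD, n = 4) by the union of its exons but at 163 TPM by its longest transcript, so its place among the factors depends on the length used.

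Other islet and liver-type factors lay lower. Isl1, a LIM-homeodomain factor of all islet cells, lay at 70.3 TPM, Rfx6, a winged-helix factor of endocrine cells, at 66.3 TPM, and Hnf4a at 29.9 TPM. Foxa1 was the lowest detected factor at 2.02 ± 0.476 TPM (SD, n = 4), far under its relative Foxa2 at 84.4 TPM. Gata4 and Gata6, zinc-finger factors of the early pancreas, had 5, 3, 1 and 2 and 10, 4, 0 and 1 counts in the 4 libraries.

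**Figure D2:**
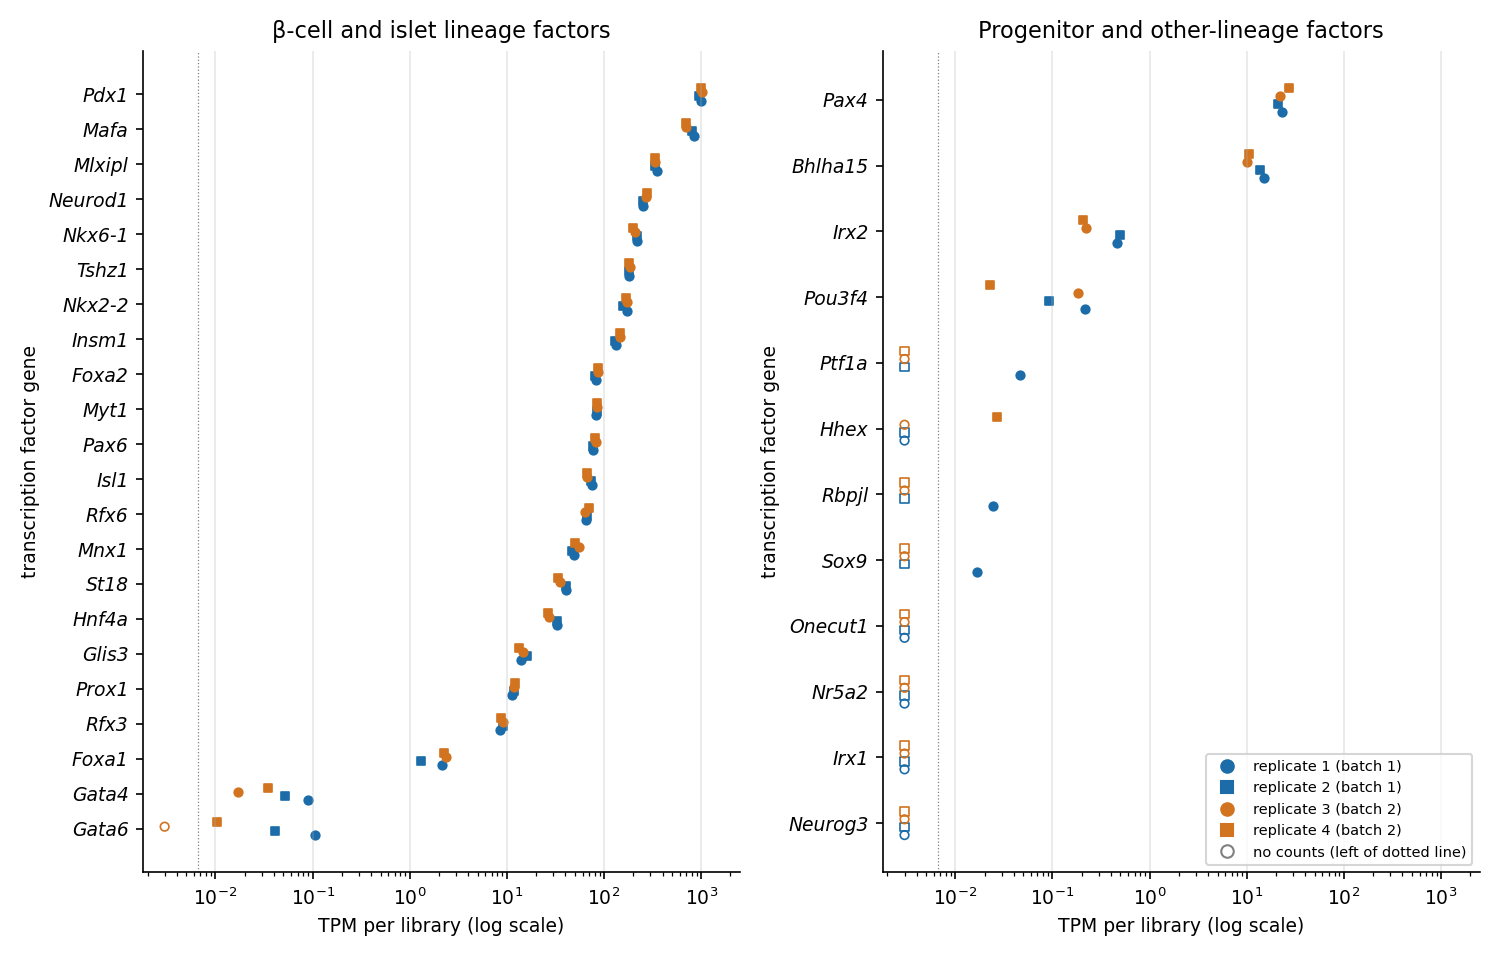
TPM per library (log scale) of 22 β-cell and islet lineage factors (left) and 12 progenitor and other-lineage factors (right) in the 4 empty-vector libraries; blue is batch 1, orange is batch 2, and open points left of the dotted line had no counts. All but Gata4 and Gata6 on the left lie above 1 TPM, whereas on the right Pax4 and Bhlha15 do so and Irx1, Neurog3, Onecut1 and Nr5a2 have no counts.

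Factors of progenitors and of other pancreatic cells were mostly absent. Of 12 listed, 2 were above 1 CPM in every library, 6 lay under it and 4 had no count in any library. The 4 were Neurog3, which starts endocrine differentiation, Irx1, an α-cell Iroquois factor, Onecut1 and Nr5a2, so each lies under 0.0155 CPM. Ptf1a of acinar cells had 1, 0, 0 and 0 counts, Sox9 of ducts and progenitors 1, 0, 0 and 0 and Hhex of δ cells 0, 0, 0 and 2. The 2 detected factors were Pax4 (23.3 ± 2.73 TPM (SD, n = 4)), a β-lineage paired-homeobox factor, and Bhlha15 (12.3 ± 2.42 TPM (SD, n = 4)), a secretory-cell factor also called Mist1. Irx2 had 22, 24, 11 and 10 counts, and no background level was estimated to set them against. Gcg was thus counted in libraries in which the α-cell factor Irx1 had no counts.

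Of the 20 β-cell and islet lineage factors tested by batch, 6 (4 lower, 2 higher) were called, where 19.4% of all tested genes were, and the median log2 difference was 0.04. Mafa had 706, 667, 591 and 586 CPM and was lower in batch 2 (log2 difference -0.22, SE 0.03, adjusted p = 1.97e-05), as were Hnf4a (log2 difference -0.28, SE 0.05, adjusted p = 0.000519) and St18 (log2 difference -0.22, SE 0.04, adjusted p = 0.000712). Pdx1, with 654, 627, 669.9 and 667 CPM, was not called (log2 difference 0.06, SE 0.03, adjusted p = 0.15), nor was Nkx6-1 (log2 difference -0.09, SE 0.03, adjusted p = 0.068). Insm1, a zinc-finger factor of endocrine cells, was higher in batch 2 (log2 difference 0.15, SE 0.04, adjusted p = 0.00617). Neurod1 was higher as well (log2 difference 0.13, SE 0.03, adjusted p = 0.00549), a call lost without replicate 4 (adjusted p = 0.0518). Isl1 (-0.13) also lost its call without replicate 1, 3 or 4.

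The glucose transporter of rodent β cells and the widespread one were both detected. Slc2a2 lay at 68 ± 21.1 TPM (SD, n = 4) and Slc2a1, which many cell types use, at 28 ± 4.63 TPM (SD, n = 4). Slc2a2 had 151, 151, 91.9 and 83.9 CPM in replicates 1 to 4, high in batch 1, with no overlap between batches. It was lower in batch 2 (log2 difference -0.78, SE 0.04, adjusted p = 2.86e-11), and Slc2a1 was higher (log2 difference 0.41, SE 0.07, adjusted p = 0.000144). Slc2a3 and Slc2a4, transporters of neurons and of muscle and fat, lay at 1.43 and 1.44 TPM. Hk1, a hexokinase of high affinity for glucose that primary β cells hold low, lay at 71.7 ± 1.49 TPM (SD, n = 4), or 112 TPM by its longest transcript, while Hk2 had 8, 6, 2 and 8 counts. G6pc2, the islet glucose-6-phosphatase, was far above Hk1 at 1312 ± 40.5 TPM (SD, n = 4), and its liver relative G6pc had 6, 3, 1 and 2 counts.

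Of the genes around pyruvate, Pcx, which carboxylates it for anaplerosis, lay at 142 ± 4.88 TPM (SD, n = 4) and Pdha1 of the dehydrogenase at 88.3 TPM. Ldha, which makes lactate, and Slc16a1, which carries lactate and pyruvate across the membrane, are known as genes that β cells keep low. They lay at 154 ± 50.1 TPM (SD, n = 4) and 31.9 ± 1.15 TPM (SD, n = 4) here. Ldha had 142, 90.3, 193 and 201 CPM, and replicate 2 lay well below its batch partner. It was higher in batch 2 (log2 difference 0.77, SE 0.10, adjusted p = 1.77e-05), a call that DESeq2's Wald test did not make (log2 difference from 0.47 to 1.12 over the alternatives), and 16.6% of its 50-base windows occur in other annotated genes. Of the 11 genes of this list that were tested, 3 were higher and 2 lower in batch 2, against 10.2% and 9.18% of all tested genes.

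Both subunits of the β-cell KATP channel were expressed. Abcc8, the sulfonylurea receptor, lay at 201 ± 12.2 TPM (SD, n = 4) and Kcnj11, the pore, at 112 ± 10.6 TPM (SD, n = 4). Their counterparts of muscle and vessels, Abcc9 and Kcnj8, lay at 1.52 and 1.1 TPM. Kcnj11 had 137, 133, 116 and 115 CPM and was lower in batch 2 (log2 difference -0.22, SE 0.04, adjusted p = 0.000213), as was Abcc8 (log2 difference -0.13, SE 0.03, adjusted p = 0.00358). Among other potassium channels Kcnh2, an ERG channel, was highest at 74.2 TPM, and Kcnk16, a two-pore-domain channel of the islet, lay at 19.1 TPM. Kcnq1 had 9, 2, 7 and 5 counts and overlaps the non-coding Kcnq1ot1. Of the 11 genes tested in this list 4 were lower in batch 2 and none higher, against 9.18% and 10.2% of all tested genes.

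All 17 calcium and sodium channel genes passed 1 CPM in every library. Among pore subunits of calcium channels, the T-type Cacna1h (26.3 ± 4.97 TPM (SD, n = 4)), the L-type Cacna1c (21.7 ± 3.22 TPM (SD, n = 4)), the T-type Cacna1g (17.8 ± 1.76 TPM (SD, n = 4)) and the L-type Cacna1d (12.3 ± 1.2 TPM (SD, n = 4)) stood above the P/Q-type Cacna1a (7.84 TPM) and N-type Cacna1b (7.24 TPM). By the longest transcript Cacna1c lay at 27.3 TPM and Cacna1h at 24.3 TPM, which turns their order. The R-type Cacna1e was lowest at 0.283 ± 0.048 TPM (SD, n = 4). The auxiliary subunit genes Cacnb3 and Cacna2d1 were higher than any pore gene, at 300.4 and 46.7 TPM. The L-type genes were lower in batch 2, Cacna1c (log2 difference -0.35, SE 0.04, adjusted p = 2.01e-06) and Cacna1d (log2 difference -0.22, SE 0.05, adjusted p = 0.00378), and so was Cacna1h (log2 difference -0.46, SE 0.04, adjusted p = 1.45e-07), whereas Cacna1g was higher (log2 difference 0.25, SE 0.05, adjusted p = 0.000825). Sodium channel pore genes were low, with Scn8a at 4.97 TPM and Scn3a and Scn9a, the main forms in mouse islets, at 0.562 and 0.618 TPM. Scn2a, Scn3a and Scn9a share 5.53% to 8.53% of their 50-base windows with other genes.

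Other channels of the list included Hcn2, a channel opened by hyperpolarisation, at 136 TPM, Clcn3 at 33.6 TPM and the calcium-activated Trpm5 at 19.7 TPM. Ano1, a chloride channel, had 2, 13, 0 and 1 counts. Of 9 tested, Hcn2 was called higher and Trpm4 lower in batch 2, a share near the 19.4% of all tested genes, and both calls were lost when some libraries were left out, Hcn2 on leaving out any of the 4.

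Among 31 G protein coupled receptors 25 were above 1 CPM in every library. Glp1r, the receptor for the incretin GLP-1, was highest at 358 ± 9.48 TPM (SD, n = 4), with 642, 632, 651 and 617 CPM and no order by batch. Ffar1, the long-chain fatty acid receptor GPR40, lay at 204 ± 14.7 TPM (SD, n = 4), the galanin receptor Galr3 at 119 TPM, the adrenergic receptor Adra2a at 101 TPM and Gipr, the receptor of the other incretin, at 77.6 TPM. Galr3 overlaps Gcat and shares 26.6% of its 50-base windows with that gene, which leaves its count uncertain.

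Members of a receptor family were unequal. Of the fatty acid receptors Ffar2 and Ffar3 lay at 41.6 and 32.4 TPM and Ffar4 at 4.39 TPM. Of the somatostatin receptors Sstr3 led at 52.6 ± 3.15 TPM (SD, n = 4), ahead of Sstr5 (11.6 ± 3.8 TPM (SD, n = 4)), while Sstr2 and Sstr1 lay at 0.714 and 0.33 TPM. The glucagon receptor Gcgr had 9, 8, 2 and 2 counts, Gpr119 had 13, 4, 13 and 6, the vasopressin receptor Avpr1b had 0, 2, 0 and 0 and the dopamine receptor Drd2 had none. The ghrelin receptor Ghsr, known from δ cells, was detected at 25.2 ± 7.08 TPM (SD, n = 4), and the muscarinic receptor Chrm3 lay at 7.62 TPM.

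Of 28 receptors tested by batch, 13 were called, 11 lower and 2 higher in batch 2, with a median of -0.17, against 9.18% of all tested genes lower and 10.2% higher. Among the called, the lowest were Sstr5 (log2 difference -0.83, SE 0.10, adjusted p = 2.51e-06), Ghsr (log2 difference -0.70, SE 0.06, adjusted p = 7.07e-08), the purine receptor P2ry1 (log2 difference -0.55, SE 0.05, adjusted p = 2.05e-07) and the calcium-sensing receptor Casr (log2 difference -0.49, SE 0.08, adjusted p = 0.000122). Sstr5 had 12.1, 12.6, 6.98 and 6.89 CPM and Ghsr 40.8, 43.5, 27.2 and 24.8 CPM, with no overlap between batches in either. P2ry1 shares 24.6% of its windows with other genes. Glp1r (log2 difference -0.01, SE 0.03, adjusted p = 0.908) and Gipr (log2 difference -0.02, SE 0.04, adjusted p = 0.82) were not called.

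Of 14 growth factor, cytokine and nutrient receptors 12 were detected. Il1r1, the interleukin-1 receptor, was highest at 232 ± 12.7 TPM (SD, n = 4), followed by the transferrin receptor Tfrc at 153 ± 14.2 TPM (SD, n = 4). Igf1r and Insr, the receptors of IGF-1 and insulin, lay at 14.4 and 9.21 TPM. Igf1r had 91.5, 102, 48.9 and 53.4 CPM and was lower in batch 2 (log2 difference -0.92, SE 0.05, adjusted p = 5.71e-11), while Insr, with 35.7, 41, 40.0 and 38.2 CPM, was not called (log2 difference 0.03, SE 0.06, adjusted p = 0.818). The prolactin receptor Prlr, at 0.483 TPM, the leptin receptor Lepr, with 6, 1, 1 and 0 counts, and the HGF receptor Met, with 1, 0, 0 and 0, were at the low end. In all, 2 of 12 tested were higher and 6 lower in batch 2, against 10.2% and 9.18% of all tested genes.

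Genes of dividing cells were high. Of 12 listed 11 were above 1 CPM in every library, with a median of 141 TPM. Mki67, the Ki-67 antigen, lay at 212 ± 33.2 TPM (SD, n = 4) and Pcna, a clamp of DNA replication, at 382 ± 9.33 TPM (SD, n = 4). The D-type cyclins were unequal, with Ccnd2 at 26.7 TPM, Ccnd3 at 5.18 TPM and Ccnd1 at 7, 6, 4 and 3 counts. Mki67 had 715, 756, 584 and 552 CPM and was lower in batch 2 (log2 difference -0.37, SE 0.03, adjusted p = 4.71e-08), together with Ccna2, Ccnb1 and Ccnd2. The other 7 genes tested, Top2a, Cdk1, Mcm2, Mcm5, Pcna, Rrm2 and Ccnd3, were not called, and 9.18% of all tested genes were lower. The call of Ccnb1 was lost without replicate 3, and 42.1% of its windows occur in other genes.

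Defining markers of other cell types were at or near 0, with exceptions. No count was seen in any library for Cela3b and Amy2a5 of acinar cells, Kdr and Cdh5 of endothelium, Lum of fibroblasts or Adgre1 of macrophages. Of 10 acinar markers 1 passed 1 CPM in all libraries (Cela1), of 6 duct markers 1 (Krt7), of 7 endothelial markers 2 (Plvap and Pecam1), of 8 fibroblast markers 2 (Col1a1 and Col1a2), of 8 leukocyte markers 1 (Cd68) and of 4 glial markers 1 (Mbp). Summed over a list, duct markers held 55.0 to 85.7 CPM per library, almost all of it Krt7 (83.6, 80.8, 55.5 and 53.6 CPM), while Krt19 had 9, 7, 16 and 14 counts. Acinar markers summed to 1.73 to 4.24 CPM, endothelial markers to 13.9 to 17.1 CPM, fibroblast markers to 2.65 to 3.93 CPM and leukocyte markers to 6.72 to 7.15 CPM. Glial markers summed to 45.4 to 56.3 CPM, nearly all Mbp, with Sox10 at 3, 2, 1 and 2 counts. Of the 4 α-cell markers Gcg and Ttr were detected, and Ttr, the transthyretin gene, had 602, 625, 529.5 and 551 CPM. Of the 4 δ-cell markers Ghsr and Rbp4 were, with Sst and Hhex near 0, and of the PP and ε-cell markers Ppy and Ghrl neither was.

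Beside insulin and granule proteins, the most abundant genes were mitochondrial or general. The 10 genes of highest CPM held 7.62% to 8.08% of the counts. They were Ins2, mt-Co1, mt-Cytb, mt-Nd5, Chga, mt-Nd1, Chgb, Iapp, Acly, which makes cytosolic acetyl-CoA, and the elongation factor gene Eef1a1. The next 10 held mt-Nd2, Ins1, the chaperones Hsp90ab1, Hspa5 and Hspa8, Scg2, Eef2, Cpe, the desaturase Scd2 and mt-Nd4. By TPM the 20 highest also held Npy, the imprinted Nnat and Gm23935. Gm23935 is annotated with an exonic length of only 57 bases, so its 8305 TPM rest on 145 CPM, and all of its 50-base windows occur in other genes, so it is uncertain. Eef1a1 and Hspa8 share 60.6% and 52.7% of their windows with other genes.

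Mitochondrially encoded genes took 4.05% to 4.33% of the counts, and their mRNAs fell into levels far apart. The respiratory chain genes mt-Cytb, mt-Co1 and mt-Nd1 lay at 24614, 24023 and 23408 TPM. Their genomic neighbours mt-Co2, mt-Atp6 and mt-Co3 lay at 333 ± 19.4 TPM (SD, n = 4), 341 ± 24.2 TPM (SD, n = 4) and 184 ± 10.3 TPM (SD, n = 4), and mt-Nd3 at 40.0 TPM. The low genes lie next to each other in the mitochondrial genome, from mt-Co2 to mt-Nd4l. In the annotation, a stretch of chromosome 1 (GRCm38) holds 7 unprocessed pseudogenes in matching order, from Gm28439 at 24611535 to Gm29216 ending at 24616197, minus strand. All 50-base windows of mt-Co2 also occur in another annotated gene, and its nearest copy is Gm28661. For mt-Atp6 (nearest copy Gm10925), mt-Co3 (Gm28437), mt-Nd3 (Gm28438) and mt-Nd4l (Gm10222) these shares are 99.5%, 99.9%, 98% and 98.8%, while for mt-Cytb and mt-Nd1 they are both 0%. The pseudogenes had counts of their own, with Gm28661 at 120.3 ± 2.28 CPM (SD, n = 4) against 69.8 ± 4.27 CPM (SD, n = 4) for mt-Co2 and Gm10925 at 114 ± 6.1 CPM (SD, n = 4) against 71.1 ± 5.37 CPM (SD, n = 4) for mt-Atp6. How the authors' counting treated reads that match both places is not stated, and its part in these low values was not tested, so the levels from mt-Co1 (51.1% of windows) to mt-Nd4 (62.2%) are uncertain. The gene mt-Atp8, at 141 TPM, lies in the same stretch, and no window of it was found in another annotated gene. Only annotated transcripts were searched, so a copy in unannotated sequence, such as that between Gm10925 and Gm28661, would not have been found. The level of mt-Atp8 is thus uncertain as well, and so is the share of counts given for mitochondrially encoded genes.

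**Figure D3:**
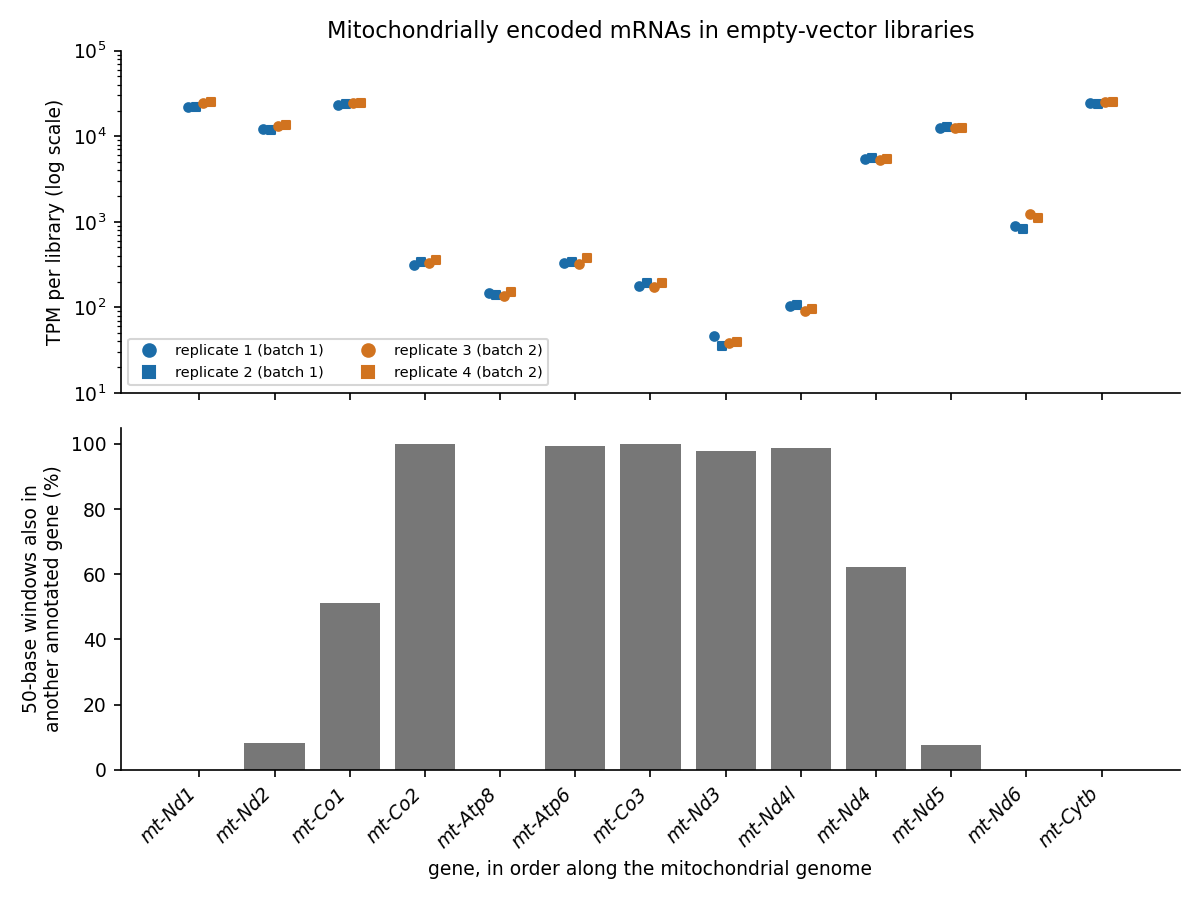
Upper panel: TPM per library (log scale) of the 13 mitochondrially encoded mRNAs in genome order, blue for batch 1 and orange for batch 2. Lower panel: the percent of each transcript's 50-base windows that also occur in another annotated gene; the genes from mt-Co2 to mt-Nd4l lie between 10 and 1000 TPM, and all of them but mt-Atp8 have 98% or more of their windows in other annotated genes. Unannotated copies were not searched.

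The spread between libraries depended on the level of a gene. Only genes with a count in every library were used, so low genes with a count of 0 in any library are left out. For the 7551 genes with a mean of 10 to 100 CPM, the median size of the log2 ratio was 0.0609 between replicates 1 and 2 and 0.0543 between replicates 3 and 4, against 0.0943 between the batch means. Counting error alone would give a median of 0.0334 for replicates 1 and 2. For the 60 genes of 1000 CPM and over the values were 0.0244 and 0.0186 within batches and 0.117 between them. For the 5548 genes of 0.1 to 1 CPM the ratios within batches, 0.531 and 0.553, exceeded the 0.446 between batch means, each of which averages 2 libraries. The biological coefficient of variation that edgeR estimated was 3.74% once batch was in the model and 8.69% when it was not.

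**Figure D4:**
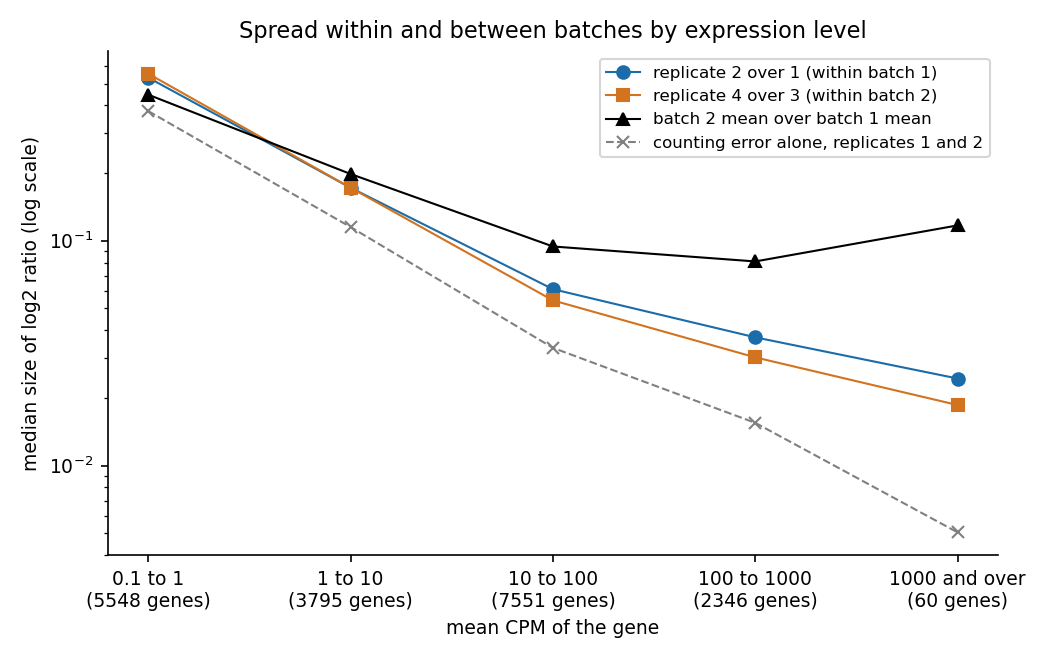
Median size of the log2 ratio (log scale) by mean CPM of the gene, for replicates 2 over 1, replicates 4 over 3, batch 2 over batch 1 means, and counting error alone. Only genes with a count in every library were used. From 10 CPM upward the line between batches lies above both lines within batches, and the gap widens to 0.117 against 0.0244 and 0.0186 at 1000 CPM and over.

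Where the average log2 CPM was 1 or more, the 5 highest and 5 lowest differences among called genes lay outside the β-cell lists. Nqo1, a quinone reductase, had 1.83, 2.46, 17.4 and 19.5 CPM (log2 difference 3.10, SE 0.13, adjusted p = 1.07e-13), and Cnksr1, a scaffold of Ras signalling, 8.78, 9.38, 63.5 and 69.4 CPM (log2 difference 2.87, SE 0.07, adjusted p = 1.3e-17). The elastin gene Eln (log2 difference 2.50, SE 0.09, adjusted p = 1.72e-14), the zinc-finger repressor gene Hic1 (log2 difference 2.44, SE 0.11, adjusted p = 6.02e-13) and Cntnap5b (log2 difference 1.85, SE 0.14, adjusted p = 3.57e-09) were the others, and all 5 were high in batch 2. Lowest were Gm10827, a non-coding gene (log2 difference -1.49, SE 0.18, adjusted p = 2.98e-06), and Dlk1, an imprinted Notch-like ligand, with 90.4, 88.1, 32.7 and 33.3 CPM (log2 difference -1.44, SE 0.05, adjusted p = 2.61e-15). Meltf (log2 difference -1.24, SE 0.09, adjusted p = 3.57e-09), the channel gene Trpc6 (log2 difference -1.23, SE 0.19, adjusted p = 6.82e-05) and the histone gene Hist1h3g (log2 difference -1.18, SE 0.21, adjusted p = 0.000345) completed the set, and Hist1h3g shares 54.1% of its windows with other histone genes. Called genes changed by a median log2 size of 0.24, and 84 were higher and 135 lower by at least 1.

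**Figure D5:**
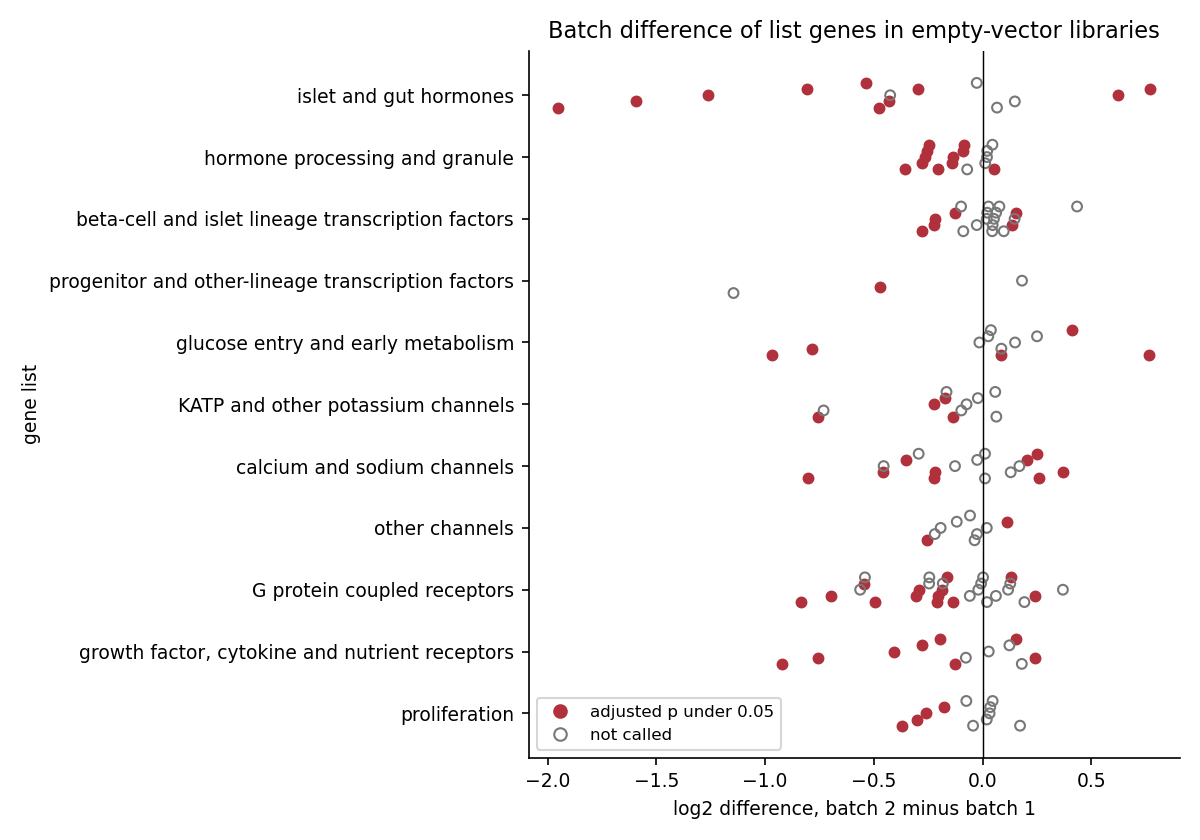
Log2 difference of batch 2 minus batch 1 for each tested gene of the 11 lists; red points passed an adjusted p of 0.05 in edgeR and grey open points did not. Hormone, granule and receptor lists hold more red points left of 0 than right of it (8 against 2, 10 against 1 and 11 against 2). Of all tested genes 9.18% were called lower and 10.2% higher, and the share among genes of like abundance was not counted. In these 3 lists Gip, Penk, Chgb, Scg3, Ptprn, Sstr3, Vipr1, Adra2a and Galr1 lost the call when some libraries were left out. The β-cell and islet lineage factors cluster near 0.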

How the data were processed

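The 4 empty-vector libraries were described from the gene table of raw read counts that the authors deposited for the whole series; the 4 Klf4 columns were not used here. The submitters' processing notes name FastQC, STAR, featureCounts, edgeR and the build mm10, without versions. The annotation and strand setting are not given in the sources used here; all gene identifiers (100%) matched GENCODE M21. Totals ran from 47017647 to 49504167 counts. CPM were scaled by TMM in edgeR 4.0.16, and TPM used the union of annotated exons. Detection meant at least 1 CPM in all 4 libraries. Batch 2 (2 libraries) was tested against batch 1 with edgeR's quasi-likelihood test after filterByExpr, with Benjamini-Hochberg adjustment at 0.05, and all adjusted p-values are from that test unless another is named. The SE beside each log2 difference was its size divided by the square root of the test's F statistic. It is not a spread between libraries. The procedure was tested on simulated data. Alternatives were DESeq2 1.42.0, limma-voom 3.58.1, other filters, thresholds and lengths, and leaving out each library. Windows of 50 bases were compared with all annotated transcripts on both strands. Named genes were the members of 11 lists (183 genes) and 10 marker lists, the 20 highest by CPM and by TPM, the 5 highest and 5 lowest between batches among called genes whose average log2 CPM was 1 or more, and the 5 of largest spread within batches among genes of at least 10 CPM. Some list members are not reported here and are left out of the list counts. Members and lists were chosen with earlier results of these data known.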

Additional observations from a re-analysis of the deposited data

Results flagged for a closer look

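Of 211 named genes tested for 1 library standing apart from the other 3 by Dixon's ratio at its 95% critical value, 3 did so. Chance would set apart about 5% of genes, or 10.6, if all 4 libraries varied alike. They fall into 2 batches that differ in many genes, so 10.6 is not the number to expect here. Rrm2, a subunit of ribonucleotide reductase, had 162.2 CPM in replicate 3 against 154.2 to 154.6 CPM in the others. Nkx2-2 had 138.4 CPM in replicate 2 against 149.9 to 150.9 CPM. Trpm5 had 45.45 CPM in replicate 1 against 35.25 to 36.99 CPM.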

How the results depend on the processing

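The count of 3429 genes called between batches stayed within 1.5 times under the other scaling (3446), DESeq2 (2400, of which 2399 were shared), limma-voom (3412), no filter (3515) and a filter of 1 CPM (3464), and ranged from 2488 to 3526 when a library was left out; the lone library of a batch was then assumed to vary like the other batch. With a log2 difference of at least 0.5 required, 651 genes were called. The 10 most abundant genes held 7.85% of counts on average and 5.918% without mitochondrially encoded genes. For 5 genes not called with all libraries, leaving out 1 library gave a difference of the opposite sign that passed the test, while other uncalled genes crossed 0 without passing: the batch difference of Gm42418 ranged from -1.426 (without replicate 4) to 0.327 (without replicate 3), the batch difference of Gm23935 from -1.043 to 0.176 and the batch difference of Mir6236 from -0.807 to 0.375 in the same libraries, the batch difference of Malat1 from -0.392 (without replicate 1) to 0.239 (without replicate 2) and the batch difference of Gm26917 from -0.222 (without replicate 4) to 0.430 (without replicate 3). These 5 genes varied widely between replicates of the same batch, as their values below show. The sign thus depended on which library was left out. What made the libraries differ was not tested. TPM by the longest transcript moved beyond the spread between libraries for 147 named genes and not for 127. No paired analysis was possible because the batches compared share no replicate numbers. Genes under about 1 CPM are limited by counting error, and with 2 libraries a batch the spread itself is known only roughly.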

Other observations

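The 5 genes of at least 10 CPM with the largest ratios within batches were Gm42418, Gm23935, Mir6236, Lars2 and Gm26917. Gm42418 had 797, 1623, 449 and 1519 CPM in replicates 1 to 4, Gm23935 118, 202, 77.5 and 181 CPM and Mir6236 23.6, 41.7, 18.6 and 42.4 CPM. Lars2, which encodes the mitochondrial leucyl-tRNA synthetase, had 108, 162, 79.5 and 144 CPM and Gm26917 125, 160.1, 122 and 192 CPM. All 5 were higher in replicate 2 than in replicate 1 and higher in replicate 4 than in replicate 3. LincRNA genes took 0.591%, 0.707%, 0.541% and 0.665% of the counts in the same libraries. That share includes Gm42418 and Gm26917 themselves, so it is not a separate observation. Of the windows of Gm42418, 94.9% occur in other annotated genes.

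Pdyn, which encodes the opioid precursor prodynorphin, is in no list and was chosen after its values were seen. It had 1967, 2027, 1816 and 1862 CPM and lay at 2173 ± 118 TPM (SD, n = 4), above Sct and Cck by the union of exons. By the longest transcript Pdyn lay at 2050 TPM and Cck at 2229 TPM, which turns their order. Pdyn was lower in batch 2 (log2 difference -0.12, SE 0.02, adjusted p = 0.000717, edgeR). Malat1, a nuclear non-coding RNA also chosen after its values were seen, had 653, 1011, 806 and 737 CPM, highest in replicate 2.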
